A study of Homo sapiens with 9 samples.

Results

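The 10 tubulin genes described here were chosen from the tubulin genes on these arrays with earlier results of these data known. They were TUBA1A, TUBA1B and TUBA1C, which encode α-tubulins, TUBB, TUBB2A, TUBB2B, TUBB3, TUBB4B and TUBB6, which encode β-tubulins, and TUBG1, which encodes γ-tubulin. A probe set, the group of oligonucleotides that reads 1 transcript region on the array, was included when its annotation named 1 of these 10 genes, alone or beside others. This gave 21 of 54613 non-control probe sets, standing for 10 of 19775 genes, and all 21 entered every fit. RNA came from extracellular vesicles shed into the medium by H9 cells, a human embryonic stem cell (hESC) line, with no genetic change or drug stated, grown without serum or feeder cells in mTeSR1 medium on Matrigel. MVs (microvesicles) were pelleted at 16500 g after clearing spins that remove debris and apoptotic bodies. EXOs (exosomes) were pelleted at 120000 g from the supernatant that the MVs step left. Non-fractionated vesicles (hESEVs) were spun down at 120000 g after 1 clearing spin, and they hold MVs and EXOs together. These speeds and steps are those of the labels. The methods give higher speeds for both hESEVs spins and state that the clearing spin was to remove apoptotic bodies too. Each group had 3 arrays, described in the methods as biological samples of 1 cell line.

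α- and β-tubulin pair into the dimers from which microtubules are built, the hollow filaments that carry intracellular transport and form the mitotic spindle. γ-tubulin sits in the ring complex that starts new microtubules. Newly made α- and β-tubulin reach the native dimer through prefoldin, the chaperonin CCT and the tubulin folding cofactors, and cells adjust the amount of tubulin mRNA to the amount of free dimer, a feedback in which TTC5 recognises nascent tubulin on the ribosome. TUBB3 is widely used as a marker of neurons, and TUBB4B is a broadly expressed isotype that is also found in cilia.

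Promoter sequences of the tubulin genes were taken from RefSeq (GRCh38.p14), where all 10 genes were matched, with 15 start site windows. Shown are the 200 bases before the start site, 5′ to 3′, of TUBG1 and TUBB4B, the genes with the largest log2 fold changes between MVs and EXOs at the signal floor of 32 used here (TUBG1 only at such a low floor), and of TUBB2A and TUBB2B, the neighbours that share a probe set. Capitals mark the letters of a CCAAT box, read as CCAAT or, from the other strand, ATTGG. In TUBB2A they mark the letters of a TATA box, TATAAA.
TUBG1 chr17:42609483-42609682, plus strand: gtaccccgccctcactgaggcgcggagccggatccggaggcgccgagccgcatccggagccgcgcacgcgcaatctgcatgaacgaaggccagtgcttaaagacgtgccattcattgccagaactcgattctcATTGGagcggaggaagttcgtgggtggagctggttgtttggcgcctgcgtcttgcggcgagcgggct
TUBB4B chr9:137241087-137241286, plus strand: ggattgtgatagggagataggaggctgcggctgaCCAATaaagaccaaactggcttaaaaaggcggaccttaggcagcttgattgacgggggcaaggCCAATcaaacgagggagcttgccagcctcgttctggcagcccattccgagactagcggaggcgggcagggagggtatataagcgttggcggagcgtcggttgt
TUBB2A chr6:3157545-3157744, minus strand: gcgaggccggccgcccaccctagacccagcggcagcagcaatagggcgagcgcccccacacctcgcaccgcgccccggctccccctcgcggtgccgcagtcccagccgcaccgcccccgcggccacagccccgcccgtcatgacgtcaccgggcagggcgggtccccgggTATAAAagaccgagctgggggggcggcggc
TUBB2B chr6:3227654-3227853, minus strand: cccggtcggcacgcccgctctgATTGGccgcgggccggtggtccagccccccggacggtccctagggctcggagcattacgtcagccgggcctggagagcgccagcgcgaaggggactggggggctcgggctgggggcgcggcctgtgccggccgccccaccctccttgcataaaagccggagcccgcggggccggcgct
Counted over 250 bases before each start site, CCAAT or ATTGG stood in 10 of 15 tubulin windows (66.7%), of 8 genes, against 32% of 35116 windows of all genes. TATAAA or TTTATA stood in 1 of 15 (6.67%), that of TUBB2A, against 10.7% of all. Only these exact letters were searched, so variants such as the tatataa printed for TUBB4B were not counted or marked. GGGCGG or CCGCCC, the GC box, stood in 9 of 15 (60%) against 42.6% of all. The end of CCGCCC can overlap the start of CCAAT, and windows of 1 gene can overlap each other. These are matches of letters and describe the genes, not the vesicles.

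Values are MAS5 signals, a linear intensity in arbitrary units that was scaled on each array to a common mean. They state how large a part of an array's signal a transcript took, not how much RNA a vesicle held, and fewer vesicles that carry an mRNA cannot be told apart from less of that mRNA per vesicle. Array medians over all probe sets ran from 358 to 365 for MVs, from 422 to 429.7 for EXOs and from 415 to 421 for hESEVs. Over all probe sets, 3949 were higher in MVs than in EXOs and 1078 (1.97%) lower, or 4765 and 336 with each array centred on its median. As a measured fact on RNA ends, the log2 ratio of the 3′ over the 5′ control probe set was read for ACTB and GAPDH. For ACTB it was 4.57 ± 0.08 in MVs, 2.61 ± 0.14 in EXOs and 3.24 ± 0.14 in hESEVs (SD, n = 3). For GAPDH it was 1.53 ± 0.004 in MVs, 0.67 ± 0.17 in EXOs and 1.04 ± 0.12 in hESEVs. By electrophoresis the paper reported longer RNA in MVs and mainly short RNA in EXOs. The part of RNA ends and RNA length in the tubulin values was not tested. As a check of the labelled cells, 10 of 11 measured pluripotent stem cell markers in MVs, 3 of 11 in EXOs and 9 of 11 in hESEVs lay above a background level, the 90th percentile of 39 genes restricted to other tissues. That level was a signal of 1527 in MVs, 1329 in EXOs and 1163 in hESEVs.

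Probe sets of all 10 tubulin genes were higher in MVs than in EXOs. Of the 21 probe sets, 20 passed the test as higher in MVs and 1 did not pass, while 7.23% of all probe sets were higher. The genes were chosen with earlier results of these data known, so this contrast describes them and does not test the tubulin family. Of 8 other measured tubulin genes, described below, 1 passed as higher in MVs. All 10 genes had a probe set that passed, and no other tubulin probe set was added at an unadjusted p under 0.05. For TUBA1A, TUBA1B, TUBA1C, TUBB2B, TUBB3 and TUBB4B only probe sets with names ending x_at or s_at passed. These types may read other transcripts too, so a difference of each of these genes alone is not shown. The test was limma across all probe sets on log2 signals, two-sided, with Benjamini-Hochberg adjustment, and a call needed an adjusted p under 0.05 together with a 2-fold or larger difference. The median log2 fold change, MVs minus EXOs, was 3.14 over the tubulin probe sets and -0.29 over all probe sets. In the same 20 probe sets the 3 MVs arrays lay above the 3 EXOs arrays, which was the case for 13.2% of all probe sets. Bright probe sets were often higher in MVs: among the brightest 5%, 48.6% passed the test, a share given here after the values were seen. With quantile normalization, which makes the arrays' distributions equal, 19 of 21 passed, while 6.79% of all probe sets were higher. The median log2 fold change of the tubulin probe sets was then 1.80, so the size of the differences changed with the scaling.

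**Figure D1:**
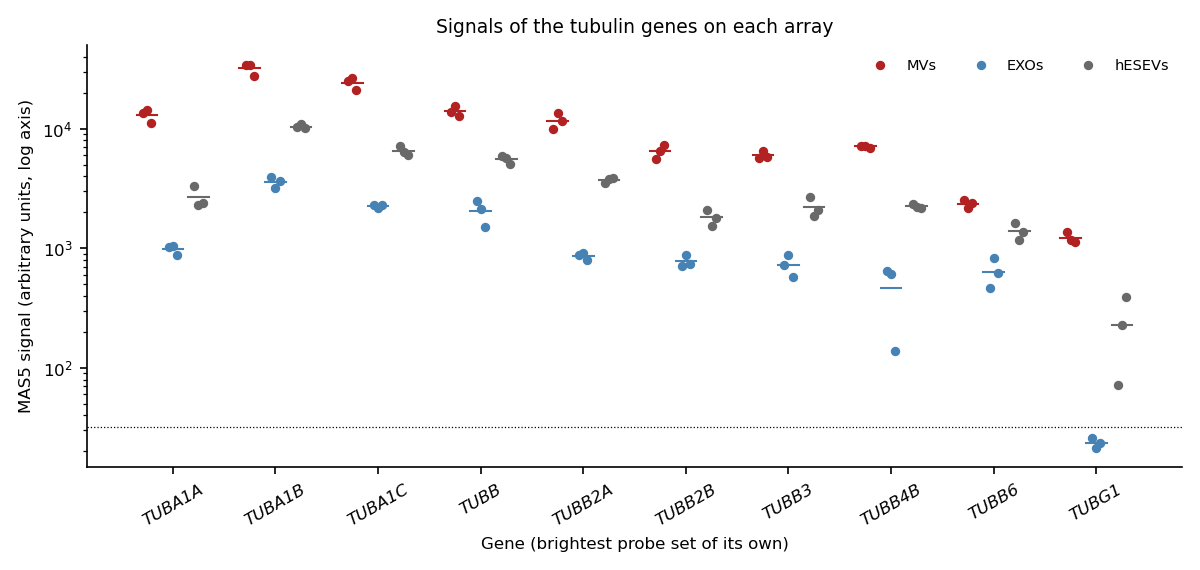
MAS5 signal (log axis, arbitrary units) of the brightest probe set of each of the 10 tubulin genes, with 1 point per array, a line at the mean of 3 arrays, and the groups MVs, EXOs and hESEVs from left to right. For every gene the 3 MVs arrays lie above the 3 EXOs arrays, the hESEVs arrays lie between them, and only TUBG1 in EXOs falls under the dotted line at 32, the floor applied before the tests.

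Among the α-tubulin genes, which lie together on chromosome 12 (GRCh38.p14, chr12:49127782-49131395 for TUBA1B, chr12:49184795-49189080 for TUBA1A and chr12:49227926-49274600 for TUBA1C), TUBA1A gave signals of 13472, 14480.4 and 11140 in MVs, 1035, 1046 and 881 in EXOs and 3354, 2284 and 2411 in hESEVs. TUBA1A encodes an α-tubulin prominent in the developing brain. Its MVs arrays were the highest and its EXOs arrays the lowest, with no overlap between any groups, and its log2 fold change, MVs minus EXOs, was 3.72 (standard error 0.13, adjusted p = 1.3e-06), or 13.2-fold.

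TUBA1B, the α-tubulin found in nearly all cells, was read by 6 probe sets. Its brightest, 211058_x_at, gave signals of 34188, 34395 and 27811 in MVs, 3969, 3224 and 3675 in EXOs and 10306, 10898 and 10115 in hESEVs. The mean was 32132 ± 3743 in MVs and 3622 ± 375 in EXOs (SD, n = 3 each), and the log2 fold change was 3.15 (standard error 0.13, adjusted p = 2.3e-06). The groups did not overlap. In 4 other probe sets of TUBA1B the means were 18936 to 31218 in MVs and 2139 to 3690.2 in EXOs, with log2 fold changes of 2.98 to 3.67, and all 4 passed. The sixth, 1565668_at, was the only tubulin probe set that did not pass. It gave signals of 430.0, 432 and 445 in MVs, 545, 269.6 and 818 in EXOs and 423, 758 and 308 in hESEVs. Its groups overlapped, its level lay under the background level in all 3 groups, and its log2 fold change was -0.18 (standard error 0.42, adjusted p = 0.81).

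TUBA1C, another broadly expressed α-tubulin, was read by a pair of probe sets. The brighter, 209251_x_at, gave signals of 24889, 26801 and 21097 in MVs, 2314, 2182 and 2326 in EXOs and 7201, 6446 and 6004 in hESEVs. The EXOs arrays were close to each other, with a coefficient of variation of 3.52%, and lay far below the MVs arrays. The log2 fold change was 3.41 (standard error 0.11, adjusted p = 1.1e-06), or 10.6-fold, and 3.26 (standard error 0.10, adjusted p = 9.8e-07) in the other probe set, 211750_x_at.

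Of the β-tubulin genes, TUBB, the main β-tubulin of many dividing cells, lies on chromosome 6 (chr6:30720352-30725422). Its brightest probe set, 211714_x_at, gave signals of 13928, 15453 and 12760.5 in MVs, 2500.2, 2125 and 1523 in EXOs and 5916, 5662 and 5085 in hESEVs. All MVs arrays lay above all others. The log2 fold change was 2.80 (standard error 0.18, adjusted p = 3.4e-05), against 2.80 (standard error 0.10, adjusted p = 1.4e-06) in 212320_at and 2.15 (standard error 0.14, adjusted p = 3.4e-05) in 209026_x_at. The last was the smallest of the 3, and with quantile normalization it was 0.75 and no longer reached 2-fold.

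TUBB2A and TUBB2B are neighbouring genes on chromosome 6 (chr6:3153666-3157544 and chr6:3224277-3227653) whose products are nearly identical. In the promoters printed, TUBB2A has the TATA box letters and TUBB2B the CCAAT box letters. TUBB2A gave signals of 9996, 13487 and 11655 in MVs, 880.2, 919 and 797 in EXOs and 3519, 3829 and 3908 in hESEVs with 204141_at. TUBB2B gave signals of 5602, 6524 and 7344 in MVs, 716, 885 and 742 in EXOs and 2107, 1549.8 and 1794 in hESEVs with 214023_x_at. Both were higher in MVs with no overlap, with log2 fold changes of 3.75 (standard error 0.13, adjusted p = 1.3e-06) for TUBB2A and 3.05 (standard error 0.14, adjusted p = 4.7e-06) for TUBB2B. A dimmer probe set, 209372_x_at, is annotated to both genes and gave 477, 555 and 647 in MVs, 116, 137 and 132 in EXOs and 528, 90 and 381 in hESEVs. Its log2 fold change was 2.12 (standard error 0.44, adjusted p = 0.019), and this call was the least firm: the adjusted p was 0.052 when all 9 arrays entered the fit, 0.063 with the replicate number as a block, and 0.064 to 0.09 without MVs replicate 1, 2 or 3.

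TUBB3 (chr16:89921925-89936097) gave signals of 5748, 6543 and 5819 in MVs, 733, 875 and 571 in EXOs and 2687, 1874 and 2078 in hESEVs with 213476_x_at. The groups did not overlap, and the log2 fold change was 3.07 (standard error 0.17, adjusted p = 1.2e-05), close to 3.14 (standard error 0.15, adjusted p = 6.0e-06) in 202154_x_at. Because TUBB3 is used as a neuron marker, a list of 13 other neuron genes was set beside it. On single arrays their summed signal reached 10167 to 10575 in MVs, against 8489 to 9050.1 in EXOs and 8385 to 9169 in hESEVs. The median log2 fold change of the list, MVs minus EXOs, was -0.03, and 1 of 13 passed as higher, where 10.9% of all genes did (1 probe set each). This was NEFM, a neurofilament subunit, with 1662 ± 137 in MVs and 450.4 ± 39 in EXOs and a log2 fold change of 1.88 (adjusted p = 2.1e-04). INA, GAP43, STMN2 and MAP2, other neuronal genes, had log2 fold changes of 0.65, 0.89, -0.42 and -0.41 and did not pass, STMN2 and MAP2 being named after their values were seen. NEFM in MVs, none in EXOs and ELAVL4 in hESEVs were the neuron genes above the background level, ELAVL4 being named after its value was seen, and the part of neuron mRNA in the TUBB3 signal was not tested.

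TUBB4B (chr9:137241287-137243707) gave signals of 7247, 7245 and 6956 in MVs, 648, 606 and 139 in EXOs and 2349, 2231 and 2164 in hESEVs with 213726_x_at. With its other probe set, 208977_x_at, it gave 6392, 6334 and 6008 in MVs, 147, 758 and 602 in EXOs and 2011, 2525 and 2118 in hESEVs. In each probe set 1 EXOs array lay far below the other EXOs arrays, but it was replicate 3 in the first and replicate 1 in the second. The log2 fold changes, 4.24 (standard error 0.53, adjusted p = 0.0017) and 3.94 (standard error 0.54, adjusted p = 0.0027), were among the largest of the tubulin genes and had the widest standard errors. The methods' t-test with Benjamini-Hochberg adjustment passed neither (adjusted p = 0.056 and 0.068).

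TUBB6 (chr18:12307669-12329826), a more divergent β-tubulin, gave signals of 2527, 2179.6 and 2375 in MVs, 468, 832 and 620.2 in EXOs and 1633, 1178 and 1360.0 in hESEVs. The groups did not overlap, but they lay closer together than in the brightest probe set of any other gene here: the log2 fold change was 1.92 (standard error 0.21, adjusted p = 8.6e-04), or 3.78-fold. TUBG1 (chr17:42609683-42615238) gave signals of 1369, 1175 and 1139 in MVs, 26, 21.3 and 23.4 in EXOs and 71.7, 226 and 389 in hESEVs. All 3 EXOs arrays were under the floor of 32, while the MVs arrays were within a narrow range. With the floor the log2 fold change was 5.26 (standard error 0.50, adjusted p = 3.3e-04), the largest of the tubulin probe sets at this floor. Its size and rank depended on the floor, the log2 fold change being 5.70 with a floor of 1 and 3.61 with a floor of 100, where it lay below those of TUBB4B, TUBB2A, TUBA1A and 211072_x_at of TUBA1B. TUBG1 lay under the background level in EXOs and also in MVs, where its mean was 1228 ± 124.

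**Figure D2:**
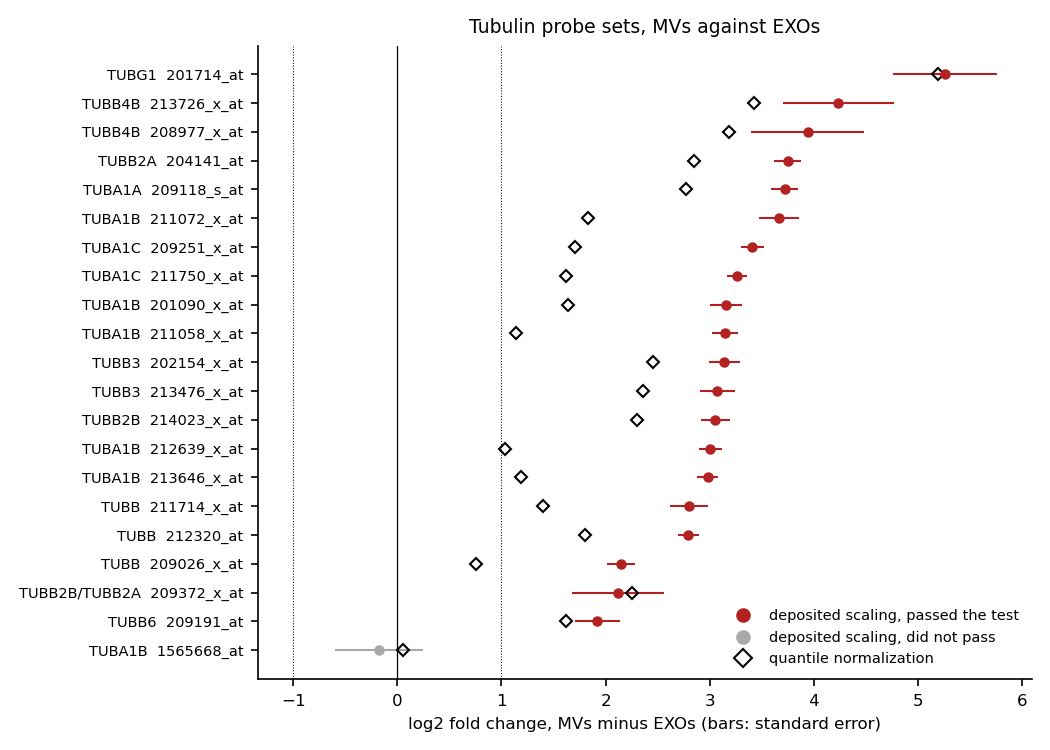
Log2 fold change, MVs minus EXOs, of the 21 tubulin probe sets (3 arrays per group), with bars for the standard error of the limma fit, filled circles for the deposited scaling, open diamonds for quantile normalization, and dotted lines at 2-fold. On the deposited scaling 20 probe sets lie between 1.92 and 5.26 and passed, 1565668_at of TUBA1B lies at -0.18 and did not, and most diamonds lie nearer to 0.

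Many of these probe sets cannot be assigned to 1 tubulin gene alone, since tubulin coding sequences are alike. By their names, 15 of the 21 (ending x_at) hold probes that can match other transcripts, 1 (s_at) matches several transcripts, and 5 have names that mark no such overlap. Of these 5, the probe sets 204141_at of TUBB2A, 209191_at of TUBB6, 212320_at of TUBB and 201714_at of TUBG1 passed as higher in MVs, and 1565668_at of TUBA1B did not. Signals near the background level bear on the size of a fold: 18 tubulin probe sets in MVs, 9 in EXOs and 18 in hESEVs had a mean above it. Of the 20 that passed, 11 had an EXOs mean at or under it. These were all passing probe sets of TUBA1A, TUBB2A, TUBB2B, TUBB3, TUBB4B, TUBB6 and TUBG1, and 212320_at of TUBB. The sizes of their folds are uncertain.

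The vesicle types were next set against the non-fractionated hESEVs, in a fit of all 9 arrays. These comparisons share the hESEVs arrays with each other and the MVs or EXOs arrays with the comparison above, so they are not independent of it. MVs were higher than hESEVs in 16 of 21 probe sets, while 4.25% of all probe sets were higher. The median log2 fold change, MVs minus hESEVs, was 1.62 over the tubulin probe sets and -0.20 over all. EXOs were lower than hESEVs in 17 of 21, while 1.95% of all probe sets were lower. The median, EXOs minus hESEVs, was -1.47 over the tubulin probe sets and 0.03 over all. The MVs arrays lay above the hESEVs arrays without overlap in 19 probe sets (12.1% of all probe sets), and the EXOs arrays lay below them in 19 (8.65% of all probe sets). Among the brightest 5% of probe sets, 38.3% were higher in MVs and 22.6% lower in EXOs than in hESEVs.

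The first of these counts changed with the scaling. With quantile normalization only TUBA1A and TUBG1 among the tubulin probe sets passed as higher in MVs than in hESEVs, 2 of 21, and the median was 0.49. For EXOs against hESEVs 12 of 21 then passed as lower, with a median of -1.29. The shares of all probe sets given above belong to the deposited scaling. Those under quantile normalization are not given for these comparisons, so these counts cannot be read against them.

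TUBA1A had the log2 fold changes 2.29 (standard error 0.16, adjusted p = 7.5e-06) for MVs minus hESEVs and -1.43 (standard error 0.16, adjusted p = 3.7e-04) for EXOs minus hESEVs. For TUBA1B, with 211058_x_at, they were 1.62 (adjusted p = 8.4e-06) and -1.53 (adjusted p = 1.6e-05). For TUBA1C, with 209251_x_at, they were 1.89 (adjusted p = 3.2e-06) and -1.52 (adjusted p = 1.2e-05). The hESEVs arrays of all 3 α-tubulin genes thus stood between those of the fractions.

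For TUBB, with 211714_x_at, the log2 fold changes were 1.34 (adjusted p = 4.4e-04) for MVs minus hESEVs and -1.47 (adjusted p = 3.6e-04) for EXOs minus hESEVs. In 212320_at of TUBB the hESEVs lay nearer to EXOs: MVs minus hESEVs was 2.07 (adjusted p = 2.9e-06) and EXOs minus hESEVs was -0.72 (adjusted p = 0.006), under 2-fold. TUBB2A had 1.63 (adjusted p = 1.1e-05) for MVs minus hESEVs and -2.12 (adjusted p = 2.4e-06) for EXOs minus hESEVs. TUBB2B had 1.84 (adjusted p = 2.5e-05) and -1.21 (adjusted p = 9.0e-04). TUBB3 had 1.46 (adjusted p = 4.0e-04) and -1.61 (adjusted p = 3.2e-04). These β-tubulin genes passed both comparisons with their brightest probe sets, whereas the probe set shared by TUBB2B and TUBB2A passed neither, its hESEVs arrays reaching from below the EXOs arrays into the range of the MVs arrays.

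TUBB4B, TUBB6 and TUBG1 were less firm against hESEVs. TUBB4B, with 213726_x_at, had 1.67 (standard error 0.46, adjusted p = 0.054) for MVs minus hESEVs, which missed the threshold although the arrays did not overlap, and -2.57 (standard error 0.46, adjusted p = 0.011) for EXOs minus hESEVs. TUBB6 had 0.77 (standard error 0.21, adjusted p = 0.051) and -1.15 (standard error 0.21, adjusted p = 0.013), of which only the second passed. TUBG1 had 2.73 (standard error 0.66, adjusted p = 0.03) and -2.53 (standard error 0.66, adjusted p = 0.089), of which only the first passed. The TUBG1 call was lost without MVs replicate 1, 2 or 3 and without hESEVs replicate 1 or 2 (adjusted p = 0.068 to 0.093), and it passed for EXOs minus hESEVs without hESEVs replicate 1 (-3.21, adjusted p = 0.017). The TUBB6 call for EXOs minus hESEVs was lost without EXOs replicate 1, where it was -0.94, and without hESEVs replicate 1 or 3 (adjusted p = 0.068 and 0.05002). That of TUBB4B was lost without hESEVs replicate 1 (adjusted p = 0.056).

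**Figure D3:**
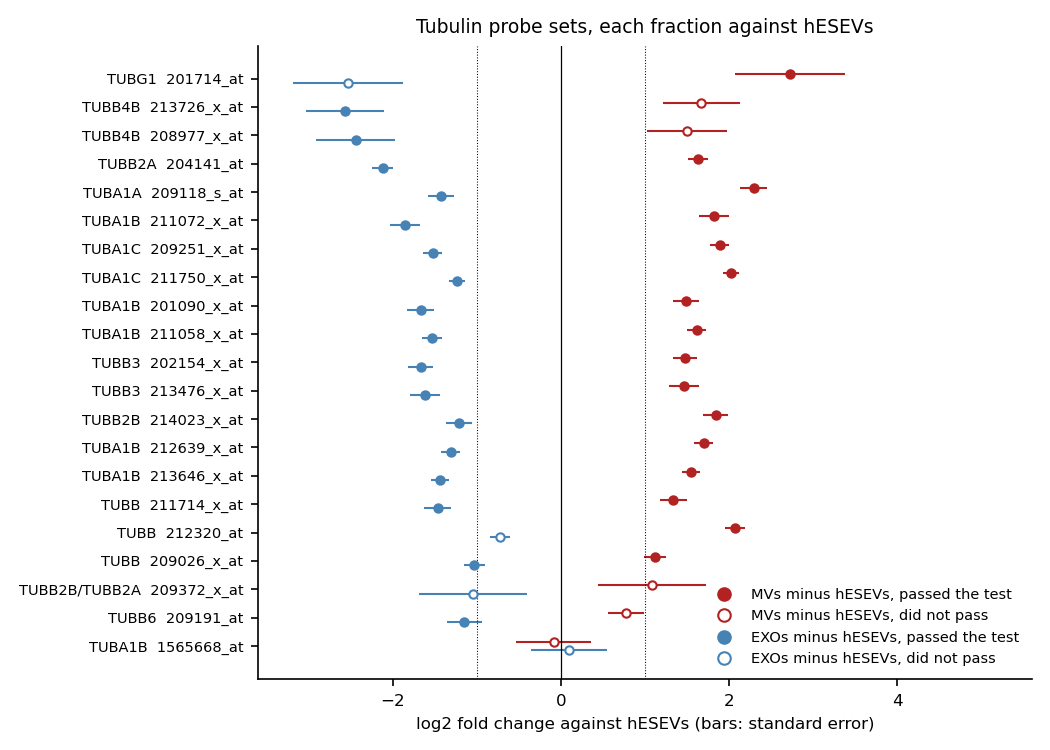
Log2 fold change of the 21 tubulin probe sets for MVs minus hESEVs (red) and EXOs minus hESEVs (blue), 3 arrays per group, with bars for the standard error of the fit of all 9 arrays, filled circles where the test passed, and dotted lines at 2-fold. For 20 probe sets the red point lies right of 0 and the blue point left of it, and 16 red and 17 blue points are filled.

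The order of the means was MVs, then hESEVs, then EXOs in 20 of 21 probe sets, and all 9 arrays followed that order in 19. The exceptions were 1565668_at of TUBA1B and, for single arrays, the probe set shared by TUBB2B and TUBB2A. On a linear scale from the EXOs mean (0%) to the MVs mean (100%), the hESEVs mean lay at a median of 25.7% over the 20 probe sets higher in MVs, from 11.1% for 212320_at of TUBB to 47.5% for the shared probe set. Over all 3949 probe sets higher in MVs than in EXOs the median was 21.9%, with a lower quartile of 13.03% and an upper quartile of 33.2%, so the tubulin mRNAs lay within the range of the others.

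The genes outside the set whose pattern over the 9 arrays came nearest to the median pattern of the tubulin genes were RPL6, RPS7, RPL35A, TPT1 and EEF1D, found among 19765 genes by the root mean square difference of centred log2 signals. RPL6, RPS7 and RPL35A encode ribosomal proteins, TPT1 the translationally controlled tumor protein and EEF1D a subunit of a translation elongation factor. Their root mean square differences were 0.098 for RPL6, 0.115 for RPS7, 0.119 for RPL35A, 0.121 for TPT1 and 0.122 for EEF1D. RPL6 gave 40735 ± 2118 in MVs, 3971 ± 706 in EXOs and 12409 ± 1189 in hESEVs (SD, n = 3 each).

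Of the other tubulin genes, 8 were measured, of which 1 was higher in MVs and 7 did not pass. Their median log2 fold change was -0.52 for MVs minus EXOs, where 10.9% of all genes (1 probe set each) were higher and 2.14% lower. TUBA4A, an α-tubulin, was the one that passed, with 1526 ± 299 in MVs and 345 ± 185 in EXOs and a log2 fold change of 2.29 (adjusted p = 0.012). Neither mean was above the background level, so the size of this fold is uncertain. TUBAL3, a divergent α-tubulin-like gene, and TUBB1, the β-tubulin of platelets, had log2 fold changes of -0.65 and -0.69 and did not pass. None of the 8 had a mean above the background level in MVs, EXOs or hESEVs, so not passing does not show equal levels.

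Most measured genes that help tubulin fold passed as higher in the MVs arrays. All 7 measured subunits of the chaperonin CCT, the barrel in which α- and β-tubulin fold, passed as higher in MVs than in EXOs. Of all genes 10.9% did, and of the brightest 5% of probe sets 48.6% did. The median log2 fold change of the 7 subunits was 3.60. All 7 lay above the background level in MVs but only 2 of 7 in EXOs, so the size of this median is uncertain. CCT2 gave 8030.5 ± 448 in MVs and 1361 ± 96.9 in EXOs, CCT8 9798 ± 599 in MVs and 818 ± 142 in EXOs and CCT3 5619.9 ± 218 in MVs and 345 ± 82.2 in EXOs (SD, n = 3 each). Their log2 fold changes were 2.56, 3.60 and 4.06, with adjusted p of 2.0e-06, 2.2e-06 and 5.5e-06. On single arrays the 7 summed to 40497 to 41258 in MVs, against 4431 to 4928 in EXOs and 8811 to 9251 in hESEVs, and their 3 ranges did not overlap. All 7 were also higher in MVs than in hESEVs, where 6.57% of all genes were, and 2 were lower in EXOs than in hESEVs, where 3.04% of all genes were. With quantile normalization all 7 still passed between MVs and EXOs, with a median of 2.73, while 6.79% of all probe sets were higher in MVs.

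Of 5 measured prefoldin subunits, which hand unfolded tubulin and actin to CCT, 4 were higher in MVs, where 10.9% of all genes were. PFDN1, named after its value was seen, did not pass, and the median was 2.80. PFDN5 gave 7022 ± 1009 in MVs and 734 ± 137 in EXOs and a log2 fold change of 3.27 (adjusted p = 1.0e-05). PFDN4 had 3.13 (adjusted p = 3.3e-06) and VBP1 had 2.80 (adjusted p = 6.2e-06). Of 7 folding cofactor genes, which assemble the dimer after CCT, 4 were higher in MVs and 3 did not pass. The share of all genes was the same 10.9%, and the median of the cofactors was 1.75. TBCA, which binds β-tubulin, gave 15683 ± 241 in MVs and 1562 ± 231 in EXOs, and TBCB, which binds α-tubulin, gave 2140.2 ± 23.6 in MVs and 101 ± 29.9 in EXOs. Their log2 fold changes were 3.34 (adjusted p = 1.3e-06) and 4.46 (adjusted p = 6.8e-05), and that of ARL2, a small GTPase of the cofactor complex, was 2.41 (adjusted p = 0.034). TBCE was the fourth, named after its value was seen, at 1.01. The EXOs means of PFDN5, PFDN4, VBP1, TBCB and ARL2 lay under the background level, as did both means of TBCE. The sizes of these folds are therefore uncertain. PFDN1 and the 3 cofactor genes that did not pass lay under the background level in both groups, so not passing does not show equal levels.

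Of 10 measured genes of the γ-tubulin ring complex, in which TUBG1 works, 1 was higher in MVs and 9 did not pass, a share near the 10.9% of all genes, with a median of -0.11. MZT1, a small subunit of the ring complex, gave 1188 ± 182 in MVs and 366 ± 40.4 in EXOs and a log2 fold change of 1.69 (adjusted p = 0.0018). TUBGCP3, a core subunit, and NEDD1, which docks the complex to the centrosome, had -1.05 and 0.50 and did not pass. Of 15 genes for tubulin modification and for the feedback on tubulin mRNA, 2 were higher and 13 did not pass, also near the 10.9% of all genes, with a median of -0.16. AGTPBP1, which removes glutamates from tubulin tails, had 1.34 (adjusted p = 0.018), and SVBP, the partner of the vasohibin enzymes that remove the last tyrosine of α-tubulin, had 2.22 (adjusted p = 0.049). MZT1, AGTPBP1 and SVBP lay under the background level in MVs and in EXOs, so the sizes of their folds are uncertain. TTLL7, a polyglutamylase, had -1.41 and did not pass. Both medians lay near 0 and turned positive, to 0.13 for the ring complex and 0.07 for the modification genes, with arrays centred on their medians.

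Of 25 genes for microtubule-associated proteins, 7 were higher in MVs and 18 did not pass, where 10.9% of all genes were higher, with a median of 0.59. MAP7, a kinesin recruiter, gave 2910.3 ± 549 in MVs and 704 ± 106 in EXOs and a log2 fold change of 2.04 (adjusted p = 2.6e-04). MAP1B and MAPRE1, which binds growing microtubule ends, had 1.16 (adjusted p = 9.5e-04) and 1.22 (adjusted p = 0.001). Of 27 genes for kinesin, dynein and dynactin subunits, 10 were higher and 17 did not pass, against the same 10.9% of all genes, with a median of 0.84. DYNLL1, a dynein light chain, gave 10827 ± 1885 in MVs and 831 ± 202 in EXOs and a log2 fold change of 3.72 (adjusted p = 1.5e-05). KIF5C, a kinesin heavy chain, had 2.77 (adjusted p = 1.6e-05) and DYNLRB1, another dynein chain, 1.96 (adjusted p = 2.8e-05). The EXOs means of MAP7, MAP1B, DYNLL1, KIF5C and DYNLRB1 lay under the background level, so the sizes of these folds are uncertain. Most genes of both lists that did not pass had no mean above that level in MVs or EXOs. For them, not passing does not show equal levels.

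**Figure D4:**
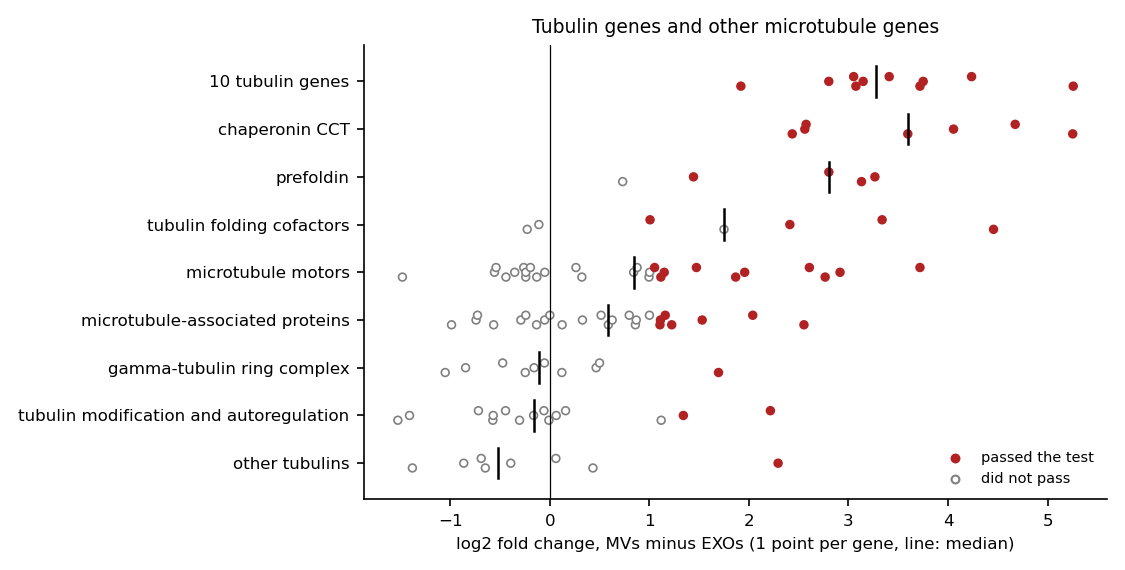
Log2 fold change, MVs minus EXOs, with 1 point per gene (its brightest probe set, 3 arrays per group), of the 10 tubulin genes and 8 lists of related genes, filled where the test passed, and with a line at each list's median. The 10 tubulin genes (median 3.28) and the 7 CCT genes (median 3.60) are all filled, whereas 1 of 10 ring complex genes and 1 of 8 other tubulin genes are. The 8 other tubulin genes, and the ring complex genes except MZT2B, had no mean above the background level in either group.

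Stem cell markers and genes of other tissues were set beside these values. Of 11 measured pluripotency genes, 10 were higher in MVs than in EXOs, where 10.9% of all genes (1 probe set each) were. The 1 that did not pass was GDF3, named after its value was seen, and the median was 2.00. LIN28A, an RNA-binding protein of stem cells, gave 17754 ± 1339.8 in MVs and 2599.7 ± 204 in EXOs and a log2 fold change of 2.77 (adjusted p = 1.6e-06). DPPA4 had 2.26 (adjusted p = 1.6e-05) and L1TD1 had 2.53 (adjusted p = 2.0e-05). DPPA4 lay under the background level in EXOs, so the size of its fold is uncertain. With quantile normalization 5 of the 11 passed, with a median of 1.29, while 6.79% of all probe sets were higher. Of 39 tissue-restricted genes, 2 were higher, 3 lower and 34 did not pass, with a median of -0.59. Of all genes 10.9% were higher and 2.14% lower. Among the tissue-restricted genes KRT10, an epidermal keratin, had 2.41, TTR, a carrier protein of plasma, -2.35, and SFTPC, a lung surfactant protein, -1.90. TTR and SFTPC lay under the background level in MVs and in EXOs, and KRT10 in EXOs, so the sizes of their folds are uncertain. That level was itself taken from the tissue-restricted genes.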

How the data were processed

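The authors deposited 9 HG-U133 Plus 2.0 arrays as MAS5 intensity values, linear and scaled per array to a target of 500. The MAS5 version is not given in the sources used here. No replicates were pooled. Groups came from the labels. The number of arrays limits the precision.

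The 62 control probe sets were left out, signals under 32 were raised to 32 and log2 was taken. Probe sets were named by the platform annotation, in which 41091 had 1 gene, 1801 several and 11721 none. MVs and EXOs were compared on their 6 arrays, and each with hESEVs in a fit of all 9, with limma 3.58.1 (lmFit, eBayes with a trend) in R 4.3.3, two-sided, adjusted by Benjamini-Hochberg over 54613 probe sets. The main probe set of a gene was the one with the highest mean log2 signal. The 10 chosen tubulin genes were all named, with up to 3 genes of each list by p and the 5 genes nearest in pattern. The members and lists were chosen with earlier results of these data known. Of each other gene list, members and their counts are given. The fit was tested on simulated data. Alternatives covered the scaling, floor, filter, probe set choice, test, replicate block, arrays in the fit and each array left out. Sequences and figures were prepared with Python 3.11.15, pandas 2.3.3 and matplotlib 3.10.9. The RMA values of the methods were not used here.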

Additional observations from a re-analysis of the deposited data

How the results depend on the processing

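The share of tubulin probe sets higher in MVs than in EXOs was 85.7% to 95.2% over the alternatives on the full set, and 90.5% to 95.2% with each array left out in turn. With an array left out it was 71.4% to 76.2% for MVs above hESEVs and 66.7% to 81.0% for EXOs below hESEVs. Quantile normalization gave 9.52% for MVs above hESEVs. For EXOs below hESEVs, probe sets without the shared types gave 40% (2 of 5), and the methods' t-test with Benjamini-Hochberg adjustment gave 28.6% (6 of 21). Over the alternatives, shares of all probe sets are given for MVs against EXOs only. The share of all probe sets higher in MVs than in EXOs was 7.23%, and 5.47% to 6.86% with an array left out. It was 13.2% among probe sets above the median signal, 11.6% with 1 probe set per gene, 4.27% without shared types and 48.7% in the brightest 5%, a filter chosen after seeing the data. Over the full set of 54613 probe sets, those lower in MVs numbered 1078, with a range over the alternatives of 336 (arrays centred on their medians) to 2650 (the methods' t-test, unadjusted). The log2 fold change of 1565668_at of TUBA1B, MVs minus EXOs, turned positive with quantile normalization (0.0542), with arrays centred on their medians (0.0541) and without EXOs replicate 3 (0.18), ran from -0.62 to 0.18 with an array left out, and passed in none of these. With the arrays centred, the median of all probe sets was -0.06 and that of the tubulin probe sets 3.37. The cause of these changes was not tested.

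With a replicate block, 90.5% (19 of 21) passed as higher in MVs than in EXOs, without the probe set shared by TUBB2B and TUBB2A (adjusted p = 0.063), 76.2% in MVs than in hESEVs, and 81.0% lower in EXOs than in hESEVs. The share of all probe sets was then 6.45%. Deviations of same-numbered MVs and EXOs arrays correlated at -0.006 to 0.013, so the numbers were not taken to pair the arrays.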

Other observations

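The spread between the 3 arrays of a group differed more between tubulin probe sets than between groups. The coefficient of variation of the 21 probe sets had a median of 10.0% in MVs, 11.7% in EXOs and 11.9% in hESEVs, with ranges of 1.81% to 15.2% for MVs, of 3.52% to 63.1% for EXOs and of 3.91% to 69.3% for hESEVs. The highest value in EXOs belonged to 208977_x_at of TUBB4B and the highest in hESEVs to TUBG1. Across the main probe sets of the 10 tubulin genes, the pairwise correlation of log2 signals over the 9 arrays ran from 0.89 to 0.997 with a median of 0.967. These arrays fall into 3 groups, so the correlations describe mostly the group differences given above. Replicate 2 was the brightest MVs array for 14 of the 21 probe sets and replicate 1 the brightest hESEVs array for 15 of the 21.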
